A study of Mus musculus with 16 samples.

Results

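The genes described here encode parts of the actomyosin system and serum response factor (SRF), a transcription factor that controls many of them. They are Myl9, Tagln, Acta2, Actg2, Tpm1, Tpm2, Cnn1, Cnn2, Vcl and Srf, and all 10 were found by symbol among the 41202 Ensembl identifiers of the expression table. They were selected on their FPKM in these same 8 libraries, with the larger wild-type rise already seen, so their levels and differences are given as a description, and no p-value is attached to any of them. Expression was measured by RNA sequencing of mouse embryonic stem cells of a mixed 129 and C57BL/6 background at passages 9-11. Wild-type cells (labelled WT, line v65) and Dgcr8-/- cells (labelled ES1) were each sampled in 2iL, the medium with MEK and GSK3 inhibitors and LIF that holds cells in the naive state, and after 48 h of differentiation in N2B27 with bFGF and KSR. There were 4 groups of 2 libraries, which the submitters call biological replicates; the sources do not say what was repeated, so the spread between libraries may be partly technical. Each genotype was 1 line, so that genotype and line cannot be told apart.

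Dgcr8 encodes the partner of Drosha in the complex that releases most miRNA precursors. It was listed at 18.3 and 19.2 FPKM in wild-type 2iL, 20.7 and 20.9 in wild type at 48 h, 9.11 and 9.33 in knockout 2iL and 7.84 and 7.80 in the knockout at 48 h. FPKM is a fragment count scaled by transcript length and library depth. Knockout levels were lower in every library, and a value per gene does not show which exons remained.

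SRF binds a short DNA element called the CArG box. It works with partners of 2 kinds: the myocardin-related factors (MRTFs), which are held in the cytoplasm by monomeric actin and enter the nucleus when actin polymerises, and the ternary complex factors of the ELK family, which respond to ERK signalling. Actin, tropomyosin, calponin, transgelin and myosin light chain genes are classical SRF and MRTF targets, best known as the contractile genes of smooth muscle and of spreading, adherent cells. Vinculin joins actin filaments to sites of adhesion.

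The CArG box was searched in the RefSeq promoter windows, which run from 250 bases before to 50 bases after each transcription start (build GRCm38.p6). The element was taken as CC, then 6 bases that are each A or T, then GG, a set that is its own reverse complement, so a search of 1 strand covers both. A near match was allowed 1 G or C among the 6 central bases. Windows were found for 8 of the 10 genes; Tagln and Actg2 had none in the table. Srf, Vcl, Cnn2 and Myl9 held a full match (4 of 8 windows), against 1.63% of all 32851 windows and 1.22% of the 12401 windows of expressed genes. With near matches, Acta2 joined them (5 of 8 windows, against 9.98% and 8.71%). The box was also frequent in other genes of the pathway, which are described below. Of their 64 windows, 12 held a full match (18.75%), and 28.1% held a full or near match. The 64 windows belonged to 45 genes, so a gene with several starts was counted more than once. Full matches lay in windows of Acta1, Actc1, Actg1, Egr2, Fermt2, Fhl1, Fhl2 and Myl6. Classical SRF targets were chosen for the listed genes and for some pathway groups, so these shares are a description and no test. No match was found in the windows of Cnn1, Tpm1 and Tpm2, which says only that these letters are not in that stretch. The windows below, 5′ to 3′ on the gene's strand, show the boxes in capitals because they are the element that the gene group is named for; in Srf and Acta2 the stretch lies inside the annotated gene span and is kept short.
Srf, chr17:46556215-46556244, minus strand: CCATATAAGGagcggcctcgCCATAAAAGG
Vcl, chr14:20929148-20929210, plus strand: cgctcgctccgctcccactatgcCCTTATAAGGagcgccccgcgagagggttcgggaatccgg
Cnn2, chr10:79988514-79988583, plus strand: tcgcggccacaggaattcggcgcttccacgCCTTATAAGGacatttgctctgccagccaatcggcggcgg
Myl9, chr2:156775273-156775404, plus strand: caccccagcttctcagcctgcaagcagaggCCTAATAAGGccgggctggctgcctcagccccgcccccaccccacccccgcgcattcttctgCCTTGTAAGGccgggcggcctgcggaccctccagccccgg
Acta2 distal, chr19:34255438-34255467, minus strand: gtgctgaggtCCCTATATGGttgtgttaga
Acta2 proximal, chr19:34255388-34255417, minus strand: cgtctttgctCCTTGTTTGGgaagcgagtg
The first box of Srf began 82 bases and the next 62 bases before the start. The Cnn2 box began 56 bases before it, the Vcl box 227, the full Myl9 box 161 and its near match 99, and the near matches of Acta2 84 and 34.

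**Figure D1:**
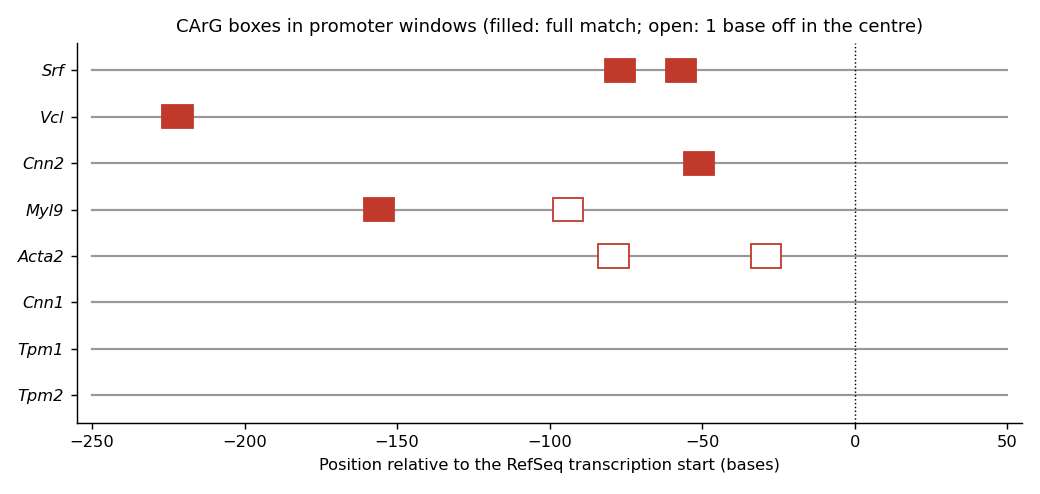
Positions of CArG boxes in the promoter windows of 8 genes. The x axis is the distance in bases from the RefSeq transcription start (dotted line); filled blocks are full matches, open blocks are near matches with 1 central base off, and the windows of Cnn1, Tpm1 and Tpm2 hold neither.

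By 48 h in wild-type cells, 9 of the 10 genes were well above their 2iL level, and each of the 9 changed less in the Dgcr8 knockout. Both 48 h wild-type libraries stood above the other 6 for all 9 genes, as they did for 27% of the 13166 genes that passed the expression filter. Summed over the 10 genes, the level went from 85.0 to 85.8 FPKM in wild-type 2iL to 315 to 323 at 48 h, and from 71.8 to 75.4 FPKM in knockout 2iL to 114 to 115 at 48 h. In bulk RNA, fewer cells of a type and less RNA per cell cannot be told apart.

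**Figure D2:**
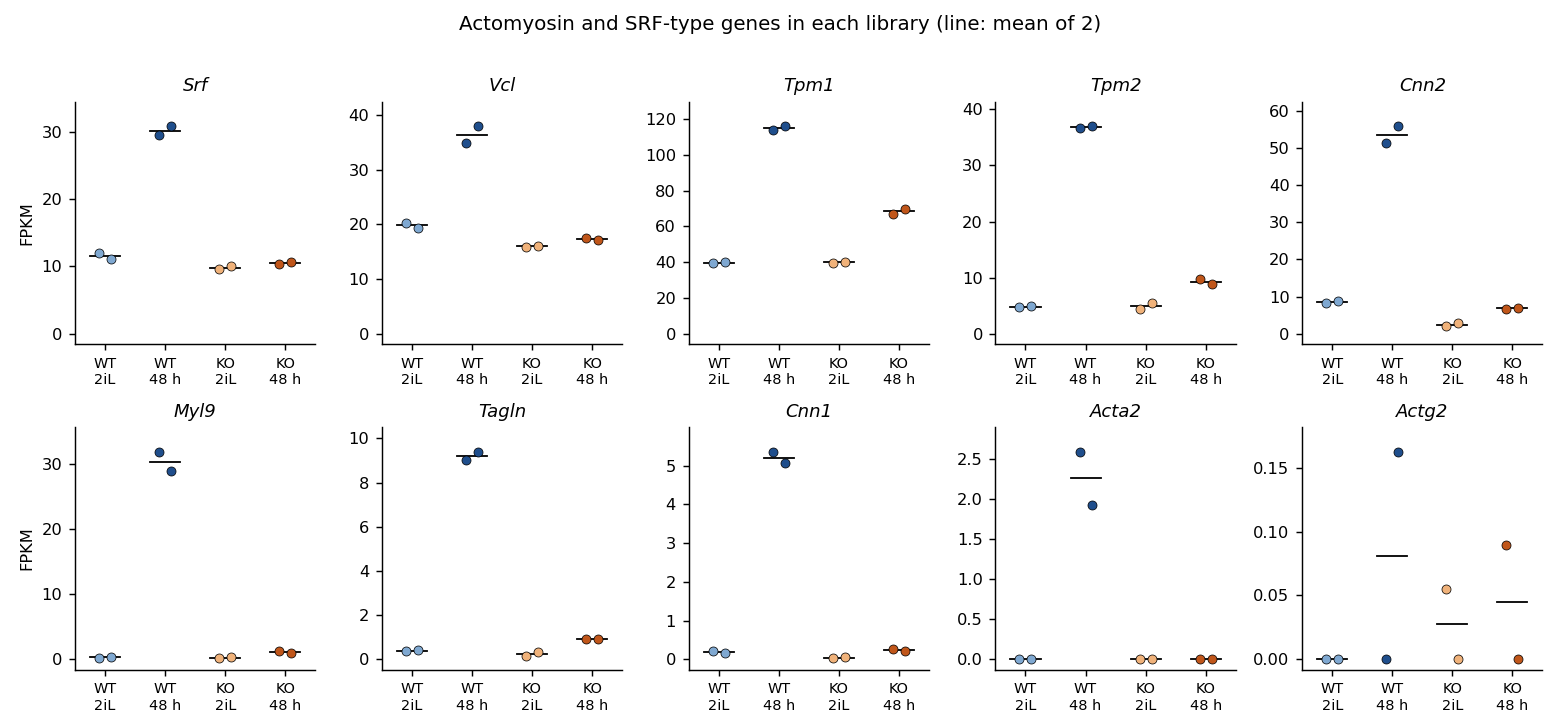
FPKM of the 10 genes in each library, on a linear axis of its own for each gene. Points are libraries and lines the mean of 2 libraries in wild type (WT) and Dgcr8 knockout (KO), in 2iL and at 48 h; in every panel but that of Actg2 both WT 48 h points lie above all others.

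Srf itself stood at 12.0 and 11.1 FPKM in wild-type 2iL, and 48 h later at 29.6 and 30.9. The knockout had 9.57 and 10.04 FPKM before and 10.4 and 10.7 after the 48 h. The wild-type level was thus 2.61 times its 2iL level, while the knockout level was 1.08 times. On the log2(FPKM + 1) scale, which is used for all differences and understates those of low genes, the change was 1.31 (SE 0.06) in wild type and 0.10 (SE 0.06) in the knockout.

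Vcl, the adhesion protein vinculin, had the smallest wild-type change of the 9. It was listed at 20.3 and 19.3 FPKM in wild-type 2iL, 34.9 and 38.0 in wild type at 48 h, 15.9 and 16.1 in knockout 2iL and 17.5 and 17.2 in the knockout at 48 h. The order of the 4 groups was that of Srf, with wild type at 48 h highest, then wild-type 2iL, the knockout at 48 h and knockout 2iL, and no neighbouring groups overlapped for either gene. The log2 change was 0.84 (SE 0.06) in wild type and 0.11 (SE 0.06) in the knockout.

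The tropomyosins, which lie along the actin filament and govern access of myosin, had nearly equal levels in both genotypes in 2iL. Tpm1 was the most abundant of the 10 genes per length, at 39.6 and 39.9 FPKM in wild-type and 39.6 and 40.3 in knockout 2iL. At 48 h it reached 114 and 116 FPKM in wild type and 67.0 and 69.7 in the knockout. The knockout level at 48 h was 59.6% of the wild-type one, the highest share among the genes that passed the expression filter.

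Tpm2 started lower and spread more between the genotypes. Wild-type libraries went from 4.68 and 4.89 FPKM to 36.6 and 37.0 by 48 h, a ratio of 7.70. Those of the knockout went from 4.34 and 5.54 to 9.66 and 8.88 FPKM, a ratio of 1.88. For both tropomyosins the 2iL groups of the genotypes overlapped and the 48 h groups did not.

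The calponins bind actin and tropomyosin; Cnn1 is a smooth muscle form and Cnn2 a form of non-muscle cells. Cnn2 already differed in 2iL, with 8.39 and 8.91 FPKM in wild type and 2.02 and 2.73 in the knockout. At 48 h it reached 51.4 and 55.9 FPKM in wild type and 6.72 and 6.86 in the knockout, which was still below the wild-type 2iL level. On the log2 scale it had the largest knockout change of the 9 genes, 1.21 (SE 0.10) against 2.501 (SE 0.10) in wild type.

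Cnn1 was near the lower end of detection in 2iL, at 0.223 and 0.156 FPKM in wild type and 0.0274 and 0.0492 in the knockout. At 48 h the wild-type libraries held 5.34 and 5.06 FPKM and the knockout libraries 0.268 and 0.221. The knockout at 48 h overlapped wild-type 2iL, and its mean was 4.70% of the wild-type mean at 48 h.

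Myl9, a regulatory light chain of smooth muscle and non-muscle myosin, had the largest ratio between 48 h and 2iL in wild type among the genes for which one could be formed. It was listed at 0.245 and 0.331 FPKM in wild-type 2iL and at 31.8 and 28.8 at 48 h, a ratio of mean FPKM of 105. Its knockout values were 0.136 and 0.383 FPKM before and 1.27 and 0.916 after 48 h. The genotypes overlapped in 2iL, and at 48 h the knockout mean was 3.61% of the wild-type mean. The log2 change was 4.603 (SE 0.13) in wild type and 0.74 (SE 0.13) in the knockout.

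Tagln encodes transgelin (SM22), an actin-binding protein used as an early marker of smooth muscle. Its libraries held 0.385 and 0.406 FPKM in wild-type 2iL, 9.02 and 9.38 in wild type at 48 h, 0.171 and 0.345 in knockout 2iL and 0.902 and 0.928 in the knockout at 48 h. None of the 4 groups overlapped another. The knockout mean at 48 h was 9.95% of the wild-type mean.

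The smooth muscle actins stood at the bottom of the range. Acta2 was listed at 2.58 and 1.93 FPKM in wild type at 48 h and at 0 in each of the other 6 libraries. Actg2 was listed at 0.162 FPKM in 1 wild-type 48 h library, at 0.0548 and 0.0892 in 1 knockout library each of 2iL and 48 h, and at 0 in the other 5. It failed the filter of at least 1 FPKM in at least 2 libraries, and no difference between groups could be seen for it. Actin genes have similar coding sequences, so some of their reads can be shared among them. The abundant cytoplasmic actin Actb stood at 1361 to 2124 FPKM in the libraries in which Acta2 was listed at 0. It stood at 1835 and 1893 FPKM in wild type at 48 h, within that range.

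**Figure D3:**
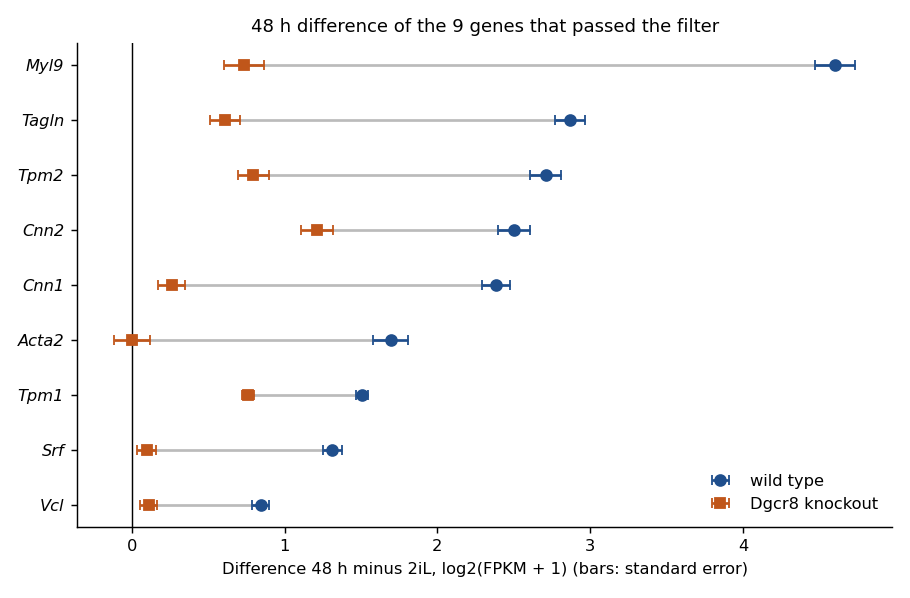
Difference between 48 h and 2iL on the log2(FPKM + 1) scale for the 9 genes that passed the filter. Circles are wild type, squares Dgcr8 knockout and bars the standard error from the linear model; the wild-type values run from 0.84 for Vcl to 4.603 for Myl9, and the knockout values from 0 for Acta2 to 1.21 for Cnn2.

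A linear model over all 13166 genes that passed the filter (limma) was used to call differences at a Benjamini-Hochberg adjusted p below 0.05. For the listed genes the calls are a description and no test, since the genes were selected on these differences, and nothing is read from their number. In wild type at 48 h against 2iL it called 9 of the 9 filtered genes higher, where 30.9% of all tested genes were called higher, and 8 of them by at least 2-fold on the log2(FPKM + 1) scale (7.79% of all). Myl9, Tagln, Cnn1 and Acta2 passed the filter through the 48 h wild-type libraries, and for them a difference was built into the filter. In the knockout 6 of the 9 were called higher (26.5% of all), the others being Srf, Vcl and Acta2, and Cnn2 alone reached 2-fold (5.14% of all). Cnn1 was the weakest of the 6 calls, and the count was 5 when any 1 of the 8 libraries was left out. The median log2 difference of the 9 genes was 2.38 in wild type and 0.61 in the knockout, and that of all tested genes was 0.03 in both.

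Between genotypes in 2iL, Cnn2, Vcl and Srf were called lower in the knockout (3 of 9, where 32.8% of all genes were lower), with log2 differences of −1.52 (SE 0.10), −0.30 (SE 0.06) and −0.22 (SE 0.06). The Srf call was lost without replicate 1 of wild-type 2iL or replicate 1 of knockout 2iL. Knockout 2iL levels stood at 101% of wild type for Tpm1, 103% for Tpm2, 90.1% for Myl9, 65.2% for Tagln and 20.2% for Cnn1, whose 2iL groups did not overlap although the difference was not called. At 48 h, 9 of 9 were called lower in the knockout (38.5% of all genes were lower), 8 of them by at least 2-fold (8.42% of all), and the median log2 difference was −1.88 against −0.05 for all tested genes. The knockout change minus the wild-type change was also called lower for 9 of 9 (21.7% of all genes), from −0.73 (SE 0.08) for Vcl and −0.75 (SE 0.06) for Tpm1 to −3.87 (SE 0.19) for Myl9. The comparisons share libraries.

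Other genes of the pathway, 58 in 5 groups, were tested in the same model; 57 were in the table and 49 passed the filter. These groups were also drawn up with earlier results of the data known, so their p-values are not independent evidence. In wild type at 48 h, limma called 19 of the 49 higher and 16 lower (30.9% and 25.6% of all genes), and the median log2 difference was 0.04. In the knockout it called 28 higher and 9 lower (26.5% and 21.9% of all genes), with a median of 0.30. The difference between the 48 h changes was called for 32 of the 49, where 42.9% of all genes were called. It was higher in the knockout for 20 (21.1% of all genes) and lower for 12 (21.7% of all genes), with a median of 0.01.

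Of the 5 SRF cofactors tested, 4 were called higher in the knockout in 2iL, where 30.6% of all genes were, and 4 at 48 h (33.4% of all). Mrtfa, which carries the actin signal to SRF, went from 4.598 and 4.85 to 8.22 and 7.44 FPKM in wild type and from 6.33 and 7.21 to 9.65 and 9.97 in the knockout. It rose in both genotypes, by a log2 difference of 0.62 (SE 0.08, limma adjusted p = 0.00055) in wild type and 0.48 (SE 0.08, adjusted p = 0.0027) in the knockout. The difference between these changes was −0.14 (SE 0.12, adjusted p = 0.360) and was not called.

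Mrtfb, its paralog, was higher in the knockout in 2iL (log2 difference 0.72, limma adjusted p = 0.00018) and at 48 h (1.198, adjusted p = 9.6e-06). Elk3, which can repress SRF targets, fell in wild type from 3.39 and 3.63 FPKM to 0.531 and 0.615 (log2 change −1.52, SE 0.08, limma adjusted p = 6.6e-06) and held 6.09 to 6.91 FPKM in the 4 knockout libraries. Elk4 was higher in the knockout by 0.83 in 2iL (limma adjusted p = 0.00016) and 1.42 at 48 h (adjusted p = 7.3e-06). Elk1 was not called in the genotype comparisons at 2iL or 48 h (0.00 and −0.14, adjusted p = 0.978 and 0.130). Myocd, the cofactor of heart and smooth muscle, was at most 0.241 FPKM. The median log2 difference of the 5 cofactors at 48 h was 1.198. The 48 h call of Mrtfa was lost without replicate 2 of wild type at 48 h (limma adjusted p = 0.097) or replicate 2 of the knockout at 48 h (adjusted p = 0.073).

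**Figure D4:**
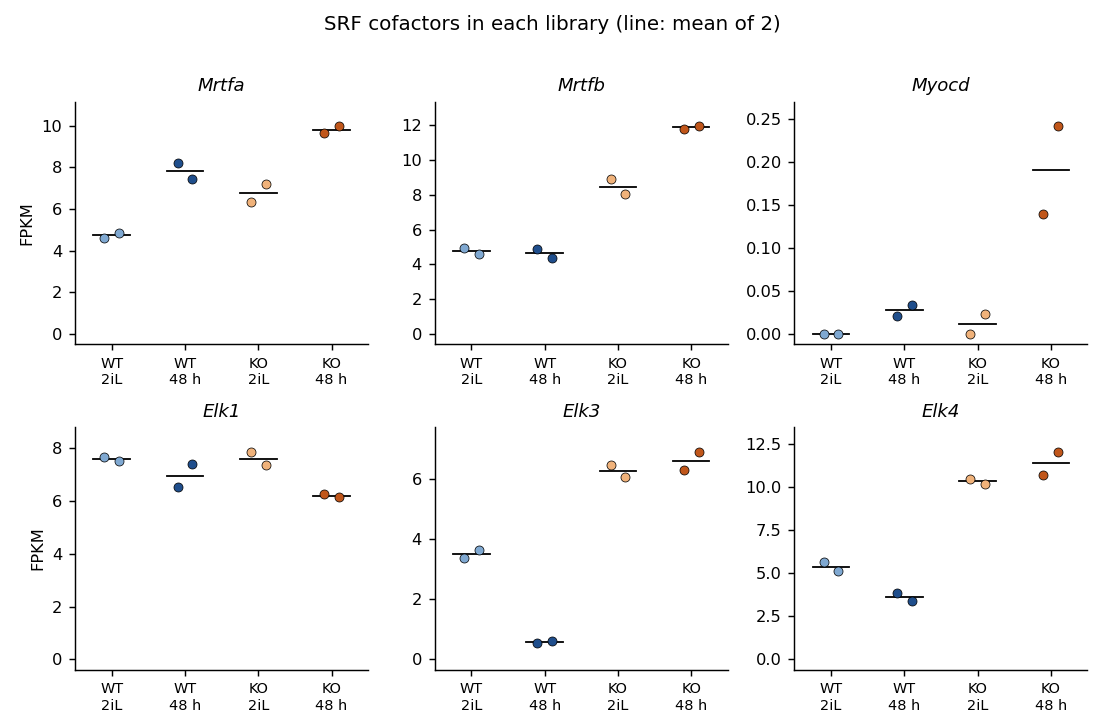
FPKM of 6 SRF cofactor genes in each library, on a linear axis of its own for each gene. Points are libraries and lines the mean of 2 libraries; Mrtfb, Elk3 and Elk4 lie higher in all 4 knockout (KO) libraries than in any wild-type (WT) library.

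In each group the counts are to be read against the same shares of all genes, 30.9% higher and 25.6% lower in wild type and 26.5% and 21.9% in the knockout. Of the other MRTF and SRF targets, 8 of 15 tested rose in wild type at 48 h and 5 fell (median log2 difference 0.64), and 10 rose and 3 fell in the knockout (median 0.33). Zyx, the adhesion protein zyxin, had the largest wild-type rise, going from 2.496 and 2.66 to 39.8 and 44.0 FPKM in wild type and from 3.02 and 3.15 to 7.50 and 7.20 in the knockout. Its change was smaller in the knockout by −2.55 (SE 0.10, limma adjusted p = 6.3e-06). Pdlim7, a scaffold of actin bundles, rose by 2.00 (SE 0.09) in wild type and 1.18 (SE 0.09) in the knockout, with limma adjusted p-values of 2.0e-06 and 4.2e-05.

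Other targets reached higher levels in the knockout. Cald1, the actin-binding protein caldesmon, went from 4.21 and 4.58 to 13.3 and 12.4 FPKM in wild type and from 7.38 and 7.25 to 56.4 and 57.6 in the knockout, so that it was higher in the knockout at 48 h by a log2 difference of 2.07 (SE 0.06, limma adjusted p = 3.0e-07). Ccn1, a matrix signalling protein, reached 8.72 and 9.72 FPKM in wild type at 48 h and 21.9 and 21.3 in the knockout. Its relative Ccn2 fell in wild type (−0.73, SE 0.07, limma adjusted p = 0.00012) and rose in the knockout (0.73, SE 0.07, adjusted p = 0.00018), and the difference between the changes was 1.46 (adjusted p = 6.0e-05). Fhl1, a LIM-domain protein of muscle, fell in both genotypes, from 5.40 and 5.24 to 3.09 and 3.48 FPKM in wild type (−0.56, SE 0.14, limma adjusted p = 0.011) and from 22.0 and 28.5 to 4.34 and 3.41 in the knockout (−2.42, SE 0.14, adjusted p = 1.3e-05).

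Among the relatives of the listed genes, 5 of 14 tested actin, myosin, tropomyosin and calponin genes rose and 5 fell in wild type (median log2 difference −0.03), and 8 rose and 3 fell in the knockout (median 0.32). Tpm4, a tropomyosin of non-muscle cells, moved in opposite directions: it rose from 39.0 and 40.9 to 91.7 and 94.3 FPKM in wild type and fell from 29.8 and 29.0 to 21.1 and 21.5 in the knockout. The difference between these changes was −1.65 (SE 0.06, limma adjusted p = 4.7e-06). Actc1, the cardiac actin, went like Acta2, from 0.0419 and 0.0441 to 1.44 and 1.47 FPKM in wild type. It was listed at 0 in all 4 knockout libraries. Because Actc1 reached 1 FPKM only in the wild-type 48 h libraries, a difference was built into the filter for it, as for Acta2. The non-muscle heavy chain Myh10 rose in both genotypes (1.36 and 1.07, limma adjusted p = 1.5e-05 and 8.2e-05). Cnn3, the remaining calponin, and Tagln3 had called differences between the genotypes' changes of 0.76 (adjusted p = 0.00058) and −0.75 (adjusted p = 0.015).

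Vinculin's partners at focal adhesions gave 7 rises and 4 falls of 16 tested in wild type (median log2 difference 0.08) and 10 rises and 1 fall in the knockout (median 0.27). Bcar1, the adaptor p130Cas, rose from 11.5 and 11.2 to 60.6 and 64.2 FPKM in wild type and from 10.9 and 12.8 to 26.1 and 25.3 in the knockout. Tns3, a tensin, fell in wild type (−1.32, SE 0.05, limma adjusted p = 1.5e-06), and its changes differed between genotypes by 1.48 (adjusted p = 1.4e-05). Parva, a parvin that binds integrin-linked kinase, was higher in the knockout in both conditions, by 3.14 (SE 0.17, limma adjusted p = 6.5e-06) in 2iL and 2.77 (SE 0.17, adjusted p = 5.8e-06) at 48 h.

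Of the immediate early genes, which the ELK cofactors serve, 4 of 8 passed the filter. Egr1 rose to 1.89 and 1.92 FPKM in wild type and 0.513 and 0.440 in the knockout. Since Egr1 reached 1 FPKM only in the wild-type 48 h libraries, a difference was built into the filter. Junb fell in both genotypes (−0.60 and −0.84, limma adjusted p = 0.0053 and 0.0014).

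**Figure D5:**
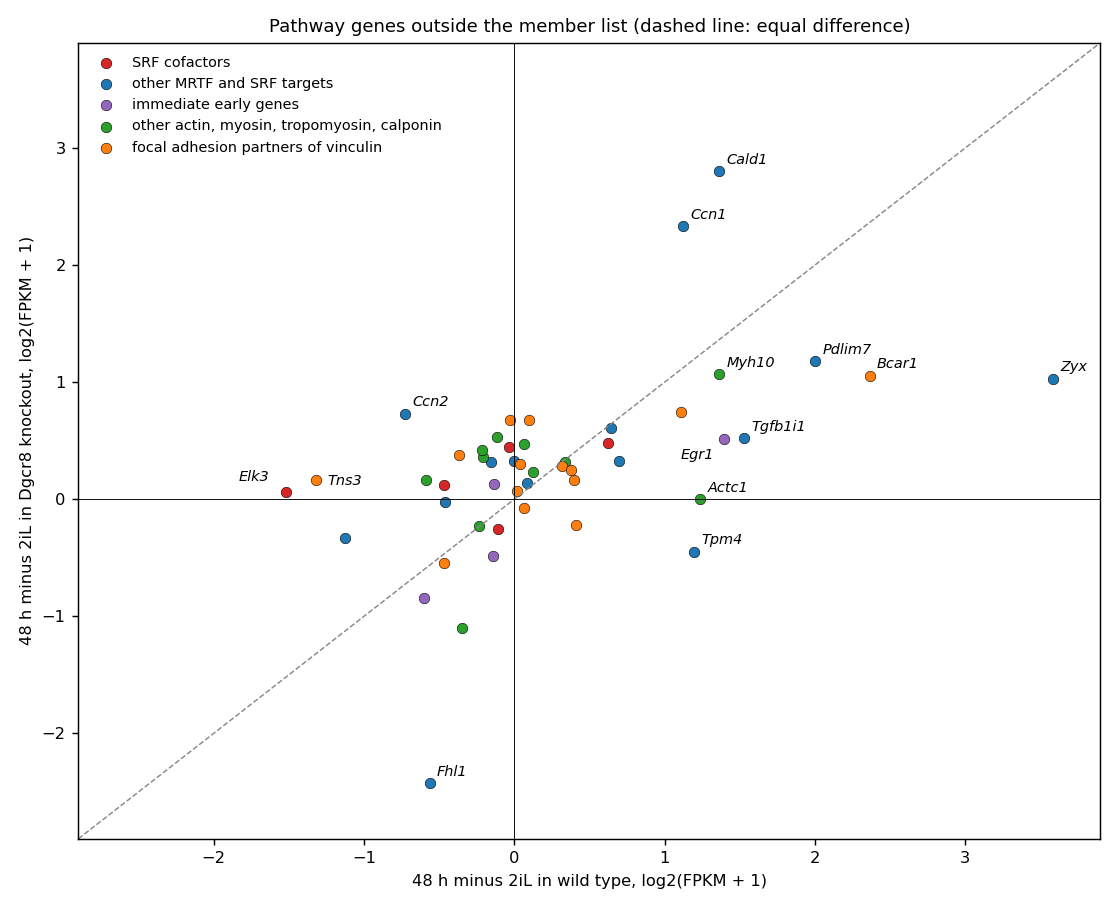
Change from 2iL to 48 h on the log2(FPKM + 1) scale in wild type (x axis) and Dgcr8 knockout (y axis) for the 49 tested pathway genes outside the list, coloured by group, a gene of several groups by the first. Points below the dashed line of equal change, such as Zyx and Tpm4, changed more upward in wild type, and points above it, such as Cald1 and Ccn2, more upward in the knockout.

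Markers of several other cell types were also checked. The listed genes are best known from smooth muscle and from spreading, adherent cells, not from every type checked. Of 9 smooth muscle markers, 3 passed the filter (Smtn, Des and Synpo2). Their sum over all 9 was 9.86 to 10.8 FPKM in wild-type 2iL, 18.3 to 18.8 at 48 h, 4.33 to 4.48 in knockout 2iL and 7.66 to 8.54 at 48 h, and the sum, like the listed genes, was highest in wild type at 48 h. Its defining member Myh11, the smooth muscle myosin, was at most 0.0913 FPKM in any library, and Pln was listed at 0 in 7 of 8. Of the 3 tested markers, Des (−1.59, SE 0.09, limma adjusted p = 4.0e-06) and Smtn (−1.49, SE 0.10, adjusted p = 1.1e-05) were lower in the knockout at 48 h and Synpo2 was higher (0.42, SE 0.11, adjusted p = 0.012). The Synpo2 call was lost without replicate 1 of wild type at 48 h (limma adjusted p = 0.080) or replicate 2 of the knockout at 48 h (adjusted p = 0.064).

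The 10 fibroblast and feeder markers, of which Thy1 and Dcn passed the filter, summed to 2.81 to 2.98 FPKM in wild-type 2iL, 12.4 to 13.0 at 48 h, 2.504 to 2.695 in knockout 2iL and 18.8 to 19.0 at 48 h. Dcn carried the higher sum of the knockout at 48 h, with 11.9 and 12.6 FPKM against 2.22 and 1.74 in wild type. Thy1 was instead highest in wild type at 48 h, with 9.20 and 9.26 FPKM against 5.84 and 5.35 in the knockout. Its log2 difference was −0.64 (SE 0.09, limma adjusted p = 0.0004) at 48 h and already −0.49 (SE 0.09, adjusted p = 0.0019) in 2iL. Col1a1, Col1a2 and Col3a1 stayed at or below 0.464 FPKM.

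The 7 cardiac and skeletal muscle markers summed to 6.55 to 7.66, 5.42 to 5.79, 8.47 to 9.92 and 1.92 to 2.33 FPKM in wild-type 2iL, wild type at 48 h, knockout 2iL and knockout at 48 h. Myh6, the cardiac myosin among them, reached 2.05 and 1.97 FPKM in wild type at 48 h and 0.381 and 0.320 in the knockout, whereas Myl7, an atrial myosin light chain, fell in both genotypes (−1.36 and −2.36, limma adjusted p = 0.00014 and 1.4e-05). The 6 primitive endoderm markers summed to 1.76 to 1.92 FPKM in wild-type 2iL, 2.29 to 2.999 in wild type at 48 h, 1.401 to 1.90 in knockout 2iL and 1.44 to 1.46 in the knockout at 48 h. Dab2, the only one of them tested, rose in wild type (1.42, SE 0.14, limma adjusted p = 0.00011) and was not called in the knockout (0.34, SE 0.14, adjusted p = 0.078), and the changes differed by −1.07 (SE 0.20, adjusted p = 0.0043). With a pseudocount of 0.1 the Dab2 change was called in the knockout too (limma adjusted p = 0.011) and the difference was not (adjusted p = 0.072). Dab2 and Myh6 reached 1 FPKM only in the wild-type 48 h libraries, so for them a difference was built into the filter. The 6 trophectoderm markers summed to 20.6 to 33.9 FPKM over all libraries. Among the 3 tested, Krt18 rose in both genotypes (3.05 and 3.24, limma adjusted p = 2.7e-06 and 3.6e-06) and Tfap2c fell in both (−3.26 and −1.91, adjusted p = 2.0e-07 and 3.9e-06). The remaining one, Gata3, reached 1 FPKM only in the knockout libraries at 48 h, so a difference was built into the filter. Gata3 rose in the knockout (1.24, limma adjusted p = 0.0011) and was not called in wild type (−0.37, adjusted p = 0.119), where it was called lower without replicate 1 of 2iL (−0.66, adjusted p = 0.0061).

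The labelled cell type was checked by 5 markers of embryonic stem cells. Pou5f1, a core pluripotency factor, stood at 695 to 990 FPKM in all libraries. Nanog, a factor of the naive state, fell from 208 and 216 to 5.38 and 5.31 FPKM in wild type and from 273 and 298 to 56.1 and 56.7 in the knockout. Sox2, the partner of Pou5f1, fell from 125 and 134 to 30.2 and 31.1 FPKM in wild type and from 239 and 256 to 179 and 168 in the knockout. Both falls were smaller in the knockout, by log2 differences of 2.75 (SE 0.07) and 1.53 (SE 0.08), with limma adjusted p-values of 1.2e-06 and 1.5e-05. The knockout thus kept more Nanog and Sox2 at 48 h, where the listed genes were lower. Pou5f1 was also higher in the knockout at 48 h (0.24, limma adjusted p = 0.0033). Sall4 (−0.27, limma adjusted p = 0.0034) and Utf1 (−0.385, adjusted p = 0.00017) were instead lower there. The part of other cell types, and of the stage the cells had reached, in the levels of the listed genes was not tested.

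The genes most like the listed ones in pattern were sought among 4949 tested genes whose group means spanned at least 1 log2 unit, by Pearson correlation of log2(FPKM + 1) over the 8 libraries. The libraries fall into 4 groups, so r mostly ranks the group means. Closest to Tagln were Tspyl4 (r = 0.998), Myh6 (0.998), Dcaf12l1 (0.997), Slc45a1 (0.997) and Mapk12 (0.997). Among the 5 closest to the mean profile of the 9 genes were Fignl2 (0.998), Dcaf12l1 (0.996), Rbbp8nl (0.996) and Ms4a4d (0.996). Mapk12, the stress kinase p38 gamma, had mean FPKM of 0.686 in wild-type 2iL, 16.6 in wild type at 48 h, 0.410 in knockout 2iL and 1.75 in the knockout at 48 h.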

How the data were processed

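Gene expression values were deposited by the authors as FPKM per gene, with STAR 2.5.0, Cufflinks 2.2.1 and build mm10 named in the submitters' processing notes; neither annotation nor strand setting is stated there. The labels give dUTP libraries and polyA RNA as the molecule, whereas the design text speaks of total RNA; which was sequenced is not settled. FPKM summed to 475200 to 548369 per library. The steps between low values gave relative depths of 0.903 to 1.34 against wild-type 2iL replicate 1; absolute depth is unknown. Of 41258 rows, 56 repeats of an identifier were dropped and 40071 identifiers had a symbol. The 13166 genes that reached 1 FPKM in 2 or more of the 8 libraries were fitted as log2(FPKM + 1) with limma 3.58.1 (4 group means, intensity trend, residual degrees of freedom 4, prior 3.12), and p-values were Benjamini-Hochberg adjusted over all of them. The procedure was tested on simulated data. The members and lists were chosen with earlier results of these data known. Named pathway genes were the 4 largest called differences per list and comparison, with others (Ccn1 and Cald1 levels, Actb, Elk1 and marker genes) added where a result turned on them. Likeness was ranked for Tagln and the mean profile, to the 5 nearest genes each. A pathway list and 1 of these genes are not reported here. The small RNA libraries were not used. Alternatives covered scaling, pseudocount, filter, prior trend, replicate block and single libraries left out. The replicate number was not treated as a pairing.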

Additional observations from a re-analysis of the deposited data

Results flagged for a closer look

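The 48 h change of 16 pathway genes outside the list differed between the genotypes by limma's interaction term (adjusted p from 4.7e-06 to 0.042). Of all 49 tested pathway genes, 20 were called higher and 12 lower, where 21.1% and 21.7% of all genes were. Values are knockout minus wild type on the log2(FPKM + 1) scale, and each gene was among the 4 largest of its group. Among the SRF cofactors these were Elk3 at 1.58, Elk4 at 0.59 and Mrtfb at 0.48. Among the other MRTF and SRF targets they were Zyx at −2.55, Fhl1 at −1.86, Tpm4 at −1.65 and Ccn2 at 1.46. The immediate early genes gave Egr1 at −0.88, Ier2 at −0.34 and Mcl1 at 0.26. Relatives of the listed genes added Actc1 at −1.24, Cnn3 at 0.76 and Tagln3 at −0.75. Focal adhesion genes added Tns3 at 1.48, Bcar1 at −1.31 and Ctnna1 at 0.74. Outside the pathway, such a difference was seen, among others, for the markers Nanog at 2.75, Sox2 at 1.53 and Dab2 at −1.07, all called by limma. The calls of Mcl1, Tagln3, Dab2 and Egr1 were lost under some alternatives, such as Egr1 with a pseudocount of 0.1 (limma adjusted p = 0.135). Egr1, Actc1 and Dab2 reached 1 FPKM only in the wild-type 48 h libraries, so for them a difference was built into the filter.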

How the results depend on the processing

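For the 9 filtered genes the counts of 9 in wild type, in the knockout at 48 h and for the difference between changes held under every alternative except a mean FPKM of at least 5, which left 6 genes, all called. Without any 1 library the knockout count was 5 and the 2iL count 2 to 3, Srf being the call lost. Pathway genes called without any 1 library ranged from 31 to 35 in wild type, 33 to 38 in the knockout, 32 to 35 between genotypes in 2iL, 38 to 43 at 48 h and 27 to 32 for the difference. No log2 difference of a gene named here that was called reversed its sign. With no filter (22979 genes) the percent of genes called was 35.5 in wild type, 29.5 in the knockout, 37.7 between genotypes in 2iL, 46.6 at 48 h and 25.9 for the difference, since more genes of low level were tested. With the replicate number as a block, 34, 36, 35, 40 and 31 pathway genes were called and 9, 5, 3, 9 and 9 listed genes, in that order of comparisons. Same-numbered libraries deviated together with r of −0.12 (wild type), 0.18 (knockout), 0.13 (2iL) and −0.04 (48 h), so numbers were not taken as pairs; with the wild-type 48 h numbers exchanged, an alternative chosen after seeing the data, the counts were 35, 36, 35, 40 and 32, and 9, 5, 3, 9 and 9. No alternative scaling moved the median of all genes by 0.1.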
